A study of Mus musculus with 32 samples.

Results

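Hemoglobin and erythroid genes were followed across 5 organs as 9 named genes. They are the adult globin genes Hba-a1, Hba-a2, Hbb-bs and Hbb-bt, the heme synthesis gene Alas2, the red cell membrane genes Slc4a1 and Epb42, the transcription factor gene Klf1 and the globin chaperone gene Ahsp. Each was sought by its exact symbol in the 5 deposited tables, 1 per organ. Of the 55289 named genes in each table, 8 were these genes, and 7 of the 8 had a mean above 0 in all 5 tables. Alas2 was listed at 0 throughout, and Ahsp was not analysed here.

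The measurement was degradome sequencing, which ligates an adapter to the uncapped 5' ends of poly(A) RNA and counts short tags from them. A value is therefore a number of uncapped ends and not the level of the intact transcript. The series compared Ftsj1-deficient mice, labelled Ftsj1_DF, with wild-type mice, labelled WT, all male, 4 months old and given no special treatment. Ftsj1 encodes a tRNA 2'-O-methyltransferase. Whole brain, heart, kidney and liver came from the same 6 mice, 3 per genotype, and whole spleen from 8 other mice, 4 per genotype, for 32 libraries in all. Some of the mice were brothers. The strain, the way the allele was made and whether organs were flushed of blood are not given in the sources used here.

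The tables hold the authors' mean over all libraries of an organ and their log2 fold change, standard error and p-values, with no value per library. Depth per library is thus unknown, and the precision of a change is the deposited standard error. The means summed to between 48536401 and 73405489 normalized counts per table. The table named for brain carried Alb, the albumin gene of hepatocytes, at 223022 CPM (counts per 1000000 of a table's summed means), against 1222 in the table named for liver. The table named for liver carried Snap25, a synaptic gene, at 398 CPM, against 1.66 in the table named for brain. The labels of these 2 tables therefore go against their markers, and they are called brain-named and liver-named here. In the authors' deposited tables the log2 fold change of Ftsj1 itself was negative in all 5, from -1.56 ± 0.61 in kidney to -3.38 ± 0.59 in liver-named. Since the tables do not state their direction, positive changes are read as higher in deficient mice.

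Red cells carry oxygen on hemoglobin, a tetramer of alpha and beta globin chains that each hold a heme. Erythroid precursors make globin, heme and the red cell membrane together under transcription factors such as KLF1 and GATA1, and the reticulocytes that leave the marrow still carry globin mRNA. In mice the spleen also makes red cells in adult life and clears old ones, and every organ that was not flushed holds circulating blood.

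The promoters of the 4 adult globin genes are printed to show how alike they are, since 2 of the genes are near copies. The printed bases lie before the annotated start, so they do not themselves show how far tags can be told apart. The 200 bases before each annotated start are given 5′ to 3′ on the strand of the gene, from RefSeq's promoter entries on GRCm38.p6, which is not the build of the deposited tables. Capitals mark 4 short motifs, searched on both strands. The first is CACCC, the core of the element that KLF1 binds. The second is GATAA, the core of the element that GATA factors bind. The other two are CCAAT, the core of the CCAAT box, and TATAA, the core of the TATA box.
Hba-a1, chr11:32283472-32283671, plus strand: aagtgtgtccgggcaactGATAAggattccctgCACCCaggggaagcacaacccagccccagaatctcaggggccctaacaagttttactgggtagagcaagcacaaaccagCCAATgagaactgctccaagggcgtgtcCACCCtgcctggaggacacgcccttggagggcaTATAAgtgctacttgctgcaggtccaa
Hba-a2, chr11:32296292-32296491, plus strand: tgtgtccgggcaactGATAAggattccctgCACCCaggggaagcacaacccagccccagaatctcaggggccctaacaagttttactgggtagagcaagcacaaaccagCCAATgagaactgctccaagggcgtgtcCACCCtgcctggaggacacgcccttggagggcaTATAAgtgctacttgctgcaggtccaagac
Hbb-bs, chr7:103827929-103828128, minus strand: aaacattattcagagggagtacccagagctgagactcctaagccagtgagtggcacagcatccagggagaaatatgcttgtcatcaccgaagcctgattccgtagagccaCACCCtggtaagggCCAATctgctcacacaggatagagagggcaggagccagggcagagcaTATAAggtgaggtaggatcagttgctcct
Hbb-bt, chr7:103813924-103814123, minus strand: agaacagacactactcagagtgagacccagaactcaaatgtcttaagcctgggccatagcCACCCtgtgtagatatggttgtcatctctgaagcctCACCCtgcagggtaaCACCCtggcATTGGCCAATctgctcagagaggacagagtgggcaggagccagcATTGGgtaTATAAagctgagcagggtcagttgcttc

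Hba-a1 and Hba-a2 shared a run of 297 bases in their 300-base RefSeq entries, offset by a few bases. All 26 windows of 25 bases that fit in the first 50 bases from the start of Hba-a1 were also found in the Hba-a2 entry. Short tags from that stretch can belong to either gene, and how the authors' counting treated such tags is not given in the sources used here. The split of tags between Hba-a1 and Hba-a2 is therefore uncertain. Hbb-bs and Hbb-bt shared 0 of 26 such windows and no run longer than 14 bases in their entries, so 25-base windows tell those stretches apart. The transcripts beyond the first 50 bases were not compared. The split of tags between Hbb-bs and Hbb-bt is therefore uncertain as well.

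Promoter entries were found for 7 of the 9 genes, the 4 adult globins with Alas2, Epb42 and Klf1. CACCC or its reverse complement occurred in 6 of the 7 windows, against 45.5% of all 32851 promoter windows of the same length. CCAAT occurred in 5 of 7, against 29.3%, and TATAA in 5 of 7, against 18.5%. GATAA occurred in 4 of 7, namely both alpha globins, Alas2 and Klf1, against 18.1%. The windows of Hba-a1 and Hba-a2 are near copies, so each of these counts takes in nearly the same sequence more than once. These matches describe letters in the windows and not binding.

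The adult alpha globin genes had their most tags in the spleen table and, after it, in the heart table. Levels here are CPM computed from the means in the authors' deposited tables, and have no spread over samples. Hba-a1, an alpha chain gene, was at 659 CPM in brain-named, 6451 in heart, 1453 in kidney, 653 in liver-named and 41732 in spleen. The spleen level was thus 6.47 times the heart level and 63.9 times the lowest. Hba-a2, the other alpha chain gene, was at 369 CPM in brain-named, 2823 in heart, 743 in kidney, 396 in liver-named and 19057 in spleen. Brain-named and liver-named, the 2 lowest tables for both genes, lay within 1.07-fold of each other on this scale. Their ratio moved with scaling: without the 10 highest genes of each table, brain-named was 1.52 times liver-named for Hba-a1 and 1.40 times for Hba-a2, and with the median of ratios 2.31 and 2.13 times.

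The adult beta globin genes were likewise highest in spleen and then in heart. Kidney came next, except that with the median of ratios brain-named was 1.26 times kidney for Hbb-bs and 1.12 times for Hbb-bt. Hbb-bs, a beta chain gene, was at 299.9 CPM in brain-named, 1461 in heart, 449 in kidney, 193 in liver-named and 10870.5 in spleen. Hbb-bt, its neighbour in the beta cluster, was at 9059 CPM in spleen, 1197 in heart, 274 in kidney, 172 in liver-named and 163 in brain-named. Together the 4 adult globin genes made up 8.07% of all tags in the spleen table and 1.19% in the heart table. Their share was 0.292% in kidney, 0.149% in brain-named and 0.142% in liver-named. In bulk tissue, fewer red cells, less RNA per cell and a smaller uncapped share of that RNA cannot be told apart in such levels.

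The membrane genes were also highest in the spleen table, but kidney came next. Slc4a1, the anion exchanger band 3 of the red cell membrane, is also made by intercalated cells of the kidney. It was at 2.28 CPM in brain-named, 3.29 in heart, 66.9 in kidney, 3.49 in liver-named and 781 in spleen. Kidney was 19.2 times the liver-named level, and the liver-named and heart levels lay within 1.06-fold. The order of those 2 turned with scaling, with heart at 1.14 times liver-named without the 10 highest genes and 1.79 times with the median of ratios. Epb42, the membrane protein 4.2 that binds band 3, was at 13.0 CPM in spleen, 0.645 in kidney, 0.130 in liver-named, 0.129 in brain-named and 0.0455 in heart. Its deposited mean was 2.30 normalized counts in heart and 31.3 in kidney, so its values outside spleen rest on few tags.

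Klf1, the transcription factor that switches on adult beta globin and many other red cell genes, was at 6.35 CPM in brain-named, 0.576 in heart, 6.28 in kidney, 0.881 in liver-named and 91.9 in spleen. Brain-named was 1.01 times kidney on this scale, 1.51 times without the 10 highest genes and 1.91 times with the median of ratios. Heart, the table with the second highest globin level, had the lowest Klf1 level on this scale and without the 10 highest genes, whereas with the median of ratios liver-named was lowest and heart was 1.24 times its level. Spleen had the highest level of all 7 genes under each of 3 scalings of the tables.

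Alas2, the X-linked enzyme that starts heme synthesis in red cell precursors, was listed at 0 in all 5 of the authors' deposited tables, spleen included. A listed 0 is not a measurement of absence here. B2m, a gene of nearly all nucleated cells, and Actc1, a cardiac actin gene, were also listed at 0 in all 5. So were 1456 of the 21218 named genes that RefSeq symbols matched to protein-coding genes, or 6.86%. In RefSeq's GRCm38.p6 annotation Alas2 overlaps Apex2, a DNA repair gene whose mean in the authors' deposited tables was between 214 and 468 normalized counts. Whether that overlap bears on the 0 was not tested.

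**Figure D1:**
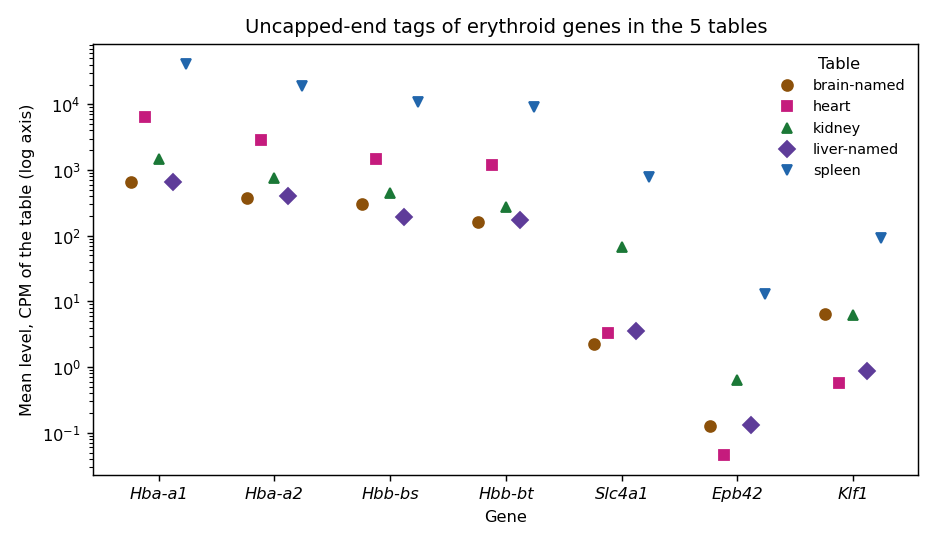
Mean level in CPM of each table (vertical log axis) for the 7 genes with values, with 1 marker per table and no error bars, since the tables hold no values per library. Spleen is highest for every gene drawn, from 13.0 CPM for Epb42 to 41732 for Hba-a1, while heart is second for the 4 globins and lowest for Epb42 and, on this scale, Klf1 (with the median of ratios liver-named is lowest for Klf1).

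The plot of levels by table shows that the genes do not keep 1 ratio to each other, and ratios within a table do not depend on how tables are scaled. Each ratio is compared across tables only, since genes differ in how many tags a molecule gives. Hba-a1 over Hba-a2 was 1.79 in brain-named, 2.29 in heart, 1.96 in kidney, 1.65 in liver-named and 2.19 in spleen. Hbb-bs over Hbb-bt was 1.84 in brain-named and 1.64 in kidney, against 1.22 in heart, 1.12 in liver-named and 1.20 in spleen. The alpha sum over the beta sum was lowest in brain-named, at 2.22, and between 2.87 and 3.49 in the other 4 tables. No error can be put on these ratios of means, and their differences were not tested.

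Relative to globin, the membrane and transcription factor genes varied far more than the globins among themselves. Slc4a1 stood at 22.9 tags per 1000 adult globin tags in kidney, which was 2.37 times the spleen ratio of 9.68. Its ratio was 2.46 in liver-named, 1.53 in brain-named and 0.276 in heart. Klf1 stood at 4.26 tags per 1000 globin tags in brain-named, 3.74 times the spleen ratio of 1.14. Its ratio was 2.15 in kidney, 0.623 in liver-named and 0.0482 in heart. Epb42 ran from 0.00382 tags per 1000 globin tags in heart to 0.221 in kidney, with 0.161 in spleen. Heart thus had the lowest ratio of all 3 genes to globin.

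**Figure D2:**
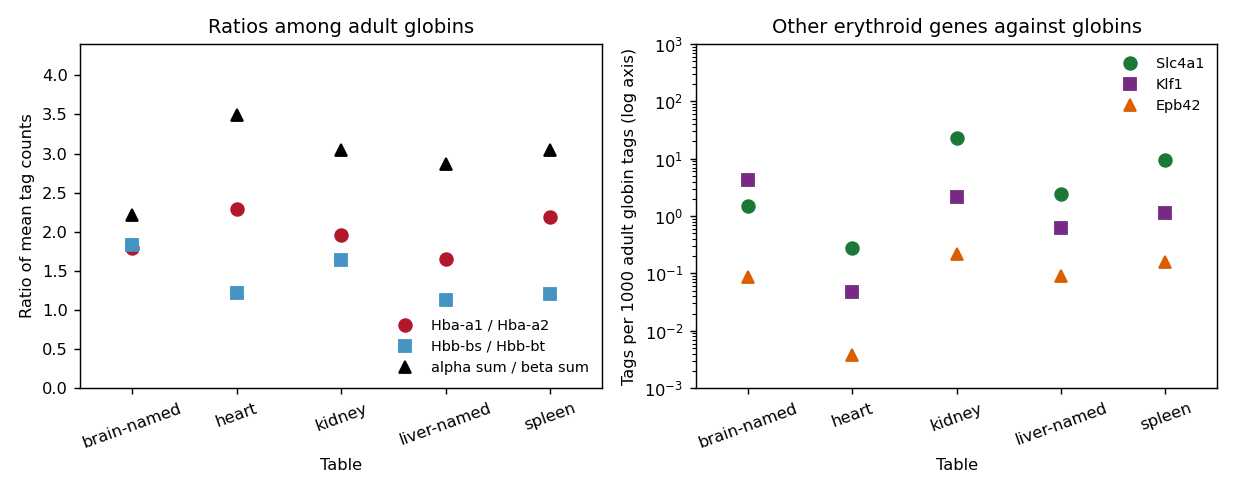
Left, ratios of mean tag counts among adult globins in each table (linear axis from 0). Right, Slc4a1, Klf1 and Epb42 tags per 1000 adult globin tags in each table (log axis); heart is lowest for all 3 genes, and brain-named is highest for Klf1 at 4.26. Markers are ratios of deposited means and carry no error bars.

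The comparison of deficient with wild-type mice asked whether these tags change with loss of Ftsj1. None of the 7 genes passed a false discovery rate of 5% in any table. Of 35 fold changes with a p-value, 32 had an adjusted p, and 0 of the 32 passed by the authors' DESeq2 test, while 5 had an unadjusted p under 0.05. The smallest adjusted p in the authors' deposited tables was 0.254, for Hba-a2 in brain-named. Among all genes tested in brain-named, 0.414% passed and 10.8% had an unadjusted p under 0.05. The same shares were 1.19% and 10.6% in heart, 2.07% and 11.9% in kidney, 0.203% and 10.4% in liver-named, and 0.217% and 5.97% in spleen. Per table, 2 of 6 tested erythroid genes in brain-named had an unadjusted p under 0.05, 1 of 6 in heart, 1 of 7 in kidney, 1 of 6 in liver-named and 0 of 7 in spleen.

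In the brain-named table, the authors' deposited table gives Hba-a1 a log2 fold change of 1.01 ± 0.44 (standard error; adjusted p = 0.333). The value for Hba-a2 in the authors' deposited table was 1.01 ± 0.40 (adjusted p = 0.254). As fold changes these are 2.02 with a 95% interval of 1.11 to 3.67, and 2.01 with an interval of 1.18 to 3.44. The authors' deposited table puts Hbb-bs at 0.78 ± 0.55 and Hbb-bt at 0.69 ± 0.44 on the log2 scale. All 4 globin estimates lay above 0, and the intervals of both beta genes included no change. Because short tags of the shared stretch can belong to either alpha gene, the 2 alpha values may not be independent, which was not tested. Slc4a1 was at 0.49 ± 0.53 and Klf1 at 0.25 ± 0.43 in the authors' deposited table, both smaller than their standard errors. Epb42, with a mean of 9.44 normalized counts in the authors' deposited table, was at -0.01 ± 0.89 and had no adjusted p.

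The median log2 fold change of the 7 genes in brain-named was 0.69, against 0.04 over all tested genes. Pancreatic acinar markers in that table, 6 digestive enzyme genes, had positive changes in all 5 tested, with a median of 3.85. Amy2a5, an amylase gene, passed the test at 2.63 ± 0.69 in the authors' deposited table (adjusted p = 0.0425). All 8 macrophage markers were positive, with a median of 0.66, and Marco, a scavenger receptor of tissue macrophages, passed at 2.47 ± 0.66 in the authors' deposited table (adjusted p = 0.0489). Endothelial markers were positive in 2 of 6, with a median of -0.04. Platelet markers were positive in 2 of 6 tested, with a median of -0.12, and neutrophil markers in 1 of 4, with a median of -0.60. T cell markers were positive in 3 of 5 tested, with a median of 0.28, and B cell markers in 3 of 7. Hepatocyte markers were positive in 6 of 8, with a median of 0.40. The part of these cells in the globin values was not tested.

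The heart table had the narrowest intervals for alpha globin. Hba-a1 was at 0.58 ± 0.29 in the authors' deposited table (adjusted p = 0.446), a 1.50-fold change with a 95% interval of 1.01 to 2.21. Hba-a2 was at 0.44 ± 0.33, Hbb-bs at 0.30 ± 0.32 and Hbb-bt at 0.46 ± 0.29 in the authors' deposited table. The intervals of these 3 included no change. Slc4a1 was at 0.35 ± 0.67, Epb42 at 0.98 ± 1.88 and Klf1 at 1.01 ± 1.25 in the authors' deposited table. All 7 estimates lay above 0, with a median of 0.46 against 0.01 over all tested genes. All 6 endothelial markers were positive as well, with a median of 0.19, and 7 of 10 tested platelet markers, with a median of 0.32. B cell markers had a median of -0.60 in heart, with 3 of 6 tested at an unadjusted p under 0.05, and Ighm, an antibody heavy chain gene, fell by 2.28 ± 0.66 on the log2 scale in the authors' deposited table (adjusted p = 0.0481). The median was -0.39 over 5 tested neutrophil markers, -0.10 over 8 macrophage markers and 0.05 over 5 tested T cell markers. The part of vessels or blood content in the globin values was not tested.

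In kidney the globins had estimates close to 0. The authors' deposited table gives Hba-a1 -0.16 ± 0.35, Hba-a2 -0.15 ± 0.34, Hbb-bs -0.10 ± 0.32 and Hbb-bt 0.09 ± 0.27. The 95% interval of Hbb-bt ran from 0.732-fold to 1.54-fold, and that of Hba-a1 from 0.555-fold to 1.44-fold. Slc4a1 was at 0.10 ± 0.23 in the authors' deposited table, an interval of 0.785-fold to 1.45-fold, the narrowest of its 5. Klf1 was at -0.74 ± 1.03 in the authors' deposited table. Epb42 had the largest estimate of the set, 3.60 ± 1.57 in the authors' deposited table (p = 0.0222, adjusted p = 0.288). Its interval ran from 1.43-fold to 103-fold, on a mean of 31.3 normalized counts. Among markers of other cells in kidney, Kif11 and Bub1b of dividing cells passed, at 3.07 ± 0.60 and 3.61 ± 0.99 in the authors' deposited table. Clec1b, a platelet receptor gene, passed at 4.08 ± 1.14 in the authors' deposited table. The median was -0.38 over 5 tested dividing-cell markers and -0.05 over 6 tested platelet markers, and their part in the Epb42 value was not tested.

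In the liver-named table the alpha and beta estimates lay on opposite sides of 0. The authors' deposited table gives Hba-a1 0.50 ± 0.67 and Hba-a2 0.52 ± 0.73, against -0.29 ± 0.62 for Hbb-bs and -0.21 ± 0.75 for Hbb-bt. Each of the 4 was smaller than its standard error. Klf1 was at -1.28 ± 0.65 in the authors' deposited table (p = 0.0481, adjusted p = 0.480), a 0.412-fold change with a 95% interval of 0.171 to 0.993. Slc4a1 was at 0.04 ± 0.64 in the authors' deposited table, and Epb42 at -1.36 ± 1.05 with no adjusted p.

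In spleen, where the genes had their most tags, the standard errors were wide all the same. Hba-a1 was at 0.66 ± 0.68, Hba-a2 at 0.59 ± 0.63, Hbb-bs at 0.37 ± 0.60 and Hbb-bt at 0.24 ± 0.61 in the authors' deposited table. The interval of Hba-a1 ran from 0.630-fold to 3.98-fold, although its mean was 2033763 normalized counts. Slc4a1 was at 0.52 ± 0.87, Epb42 at 1.25 ± 1.23 and Klf1 at 1.16 ± 1.03 in the authors' deposited table. All 7 were above 0, with a median of 0.59 against -0.01 over all tested genes, and every adjusted p was 1.00 after rounding. Platelet markers were positive in 10 of 11 tested, with a median of 0.65, neutrophil markers in 8 of 10, with a median of 1.27, and markers of dividing cells in 6 of 8, with a median of 0.63. B cell markers had a median of -0.07. Acinar markers, 143535 CPM in sum, had a median of -0.33. The part of cell composition in these values was not tested.

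**Figure D3:**
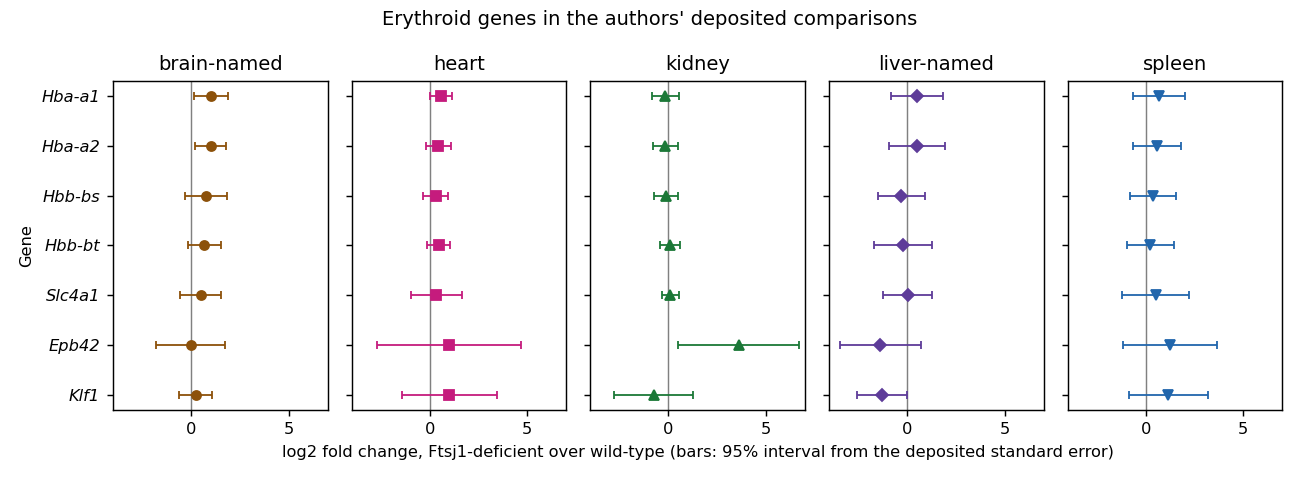
Log2 fold change of deficient over wild-type (horizontal axis) for the 7 genes in each table, with points for the deposited estimates and bars for 95% intervals computed from the deposited standard errors. The globin intervals are narrowest in heart and kidney; only Hba-a1 and Hba-a2 in brain-named, Hba-a1 in heart, Epb42 in kidney and Klf1 in liver-named have intervals that leave out 0, and none of these passed after adjustment.

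The forest plot of changes shows how wide the intervals were, which sets what could have been called. From the largest p that passed in each table, a change in Hba-a1 would have passed at 1.99-fold in heart and 2.23-fold in kidney. It would have needed 3.10-fold in brain-named, 6.20-fold in liver-named and 6.23-fold in spleen. Over the 4 adult globins and 5 tables, the fold needed ran from 1.86 for Hbb-bt in kidney to 7.67 for Hbb-bt in liver-named. For genes with a mean of at least 10000, the median standard error was 0.57 in spleen and 0.26 in heart, so the wide globin errors in spleen are shared by other abundant genes there.

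Changes were also compared between tables, by a z test on the difference of 2 deposited log2 fold changes, adjusted over all genes tested in both. Of 61 differences for these genes over 10 pairs of tables, 0 passed, and 4 had an unadjusted p under 0.05. The share of all genes with such an unadjusted p is not given here, so these 4 cannot be set against it. Over all genes the share that passed was 0.452% for brain-named against heart, 1.3% for brain-named against kidney, 0.0% for brain-named against liver-named and 0.0534% for brain-named against spleen. It was 0.638% for heart against kidney, 0.165% for heart against liver-named and 0.117% for heart against spleen. It was 0.791% for kidney against liver-named, 0.411% for kidney against spleen and 0.0799% for liver-named against spleen. The smallest adjusted p was 0.310, for Hba-a2 between brain-named and kidney, a log2 difference of 1.16 with a 95% interval of 0.14 to 2.18. Hba-a1 differed by 1.17 between the same tables, with an interval of 0.07 to 2.27 (adjusted p = 0.360). The other 2 were Klf1 in liver-named against brain-named and against spleen, with adjusted p = 0.933 and 0.959. Organs of the same mice enter 4 of the tables, so for pairs among these the assumption of independence behind this z test is not met by design. Pairs with spleen do not share mice, although some mice were brothers.

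Other genes of red cell formation and heme handling were read from 7 lists with 76 genes. A single gene passed in a single table. Nfe2, a transcription factor of red cell precursors and megakaryocytes, rose in heart by 1.70 ± 0.49 on the log2 scale in the authors' deposited table (adjusted p = 0.0465). Its level there was 2.25 CPM, against 84.0 in spleen. The call was lost when p-values were adjusted over every gene with a p-value (adjusted p = 0.0770) and when the test statistic was rescaled by its spread (adjusted p = 0.245), and held over genes with a mean of at least 20 (adjusted p = 0.0420). Treml1, a platelet receptor gene, also passed in heart at 3.47 ± 0.93 in the authors' deposited table. With Nfe2, 1 of 66 tested list genes passed in heart, against 1.19% of all tested genes. An unadjusted p under 0.05 was found for 9 of the 66, against 10.6% of all tested genes. Outside heart 0 passed by the authors' DESeq2 test, against 0.203% to 2.07% of all tested genes. The unadjusted count there was 7 of 62 in brain-named (10.8% of all tested genes) and 5 of 62 in kidney (11.9%). It was 3 of 69 in liver-named (10.4%) and 3 of 74 in spleen (5.97%).

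Globins other than the adult genes were nearly without tags. Their 6 genes, embryonic and theta-like, summed to 8.18 CPM in spleen and at most 1.18 in the other tables. Hbq1a and Hbq1b, the theta-like genes, made up most of the spleen sum, at 3.62 and 3.83 CPM. Hba-ps3, an alpha pseudogene row named here after its values were seen, had far more, at 4284 CPM in spleen. That was 10.3% of the Hba-a1 level in spleen, against 4.53% in heart. In the authors' deposited brain-named table Hba-ps3 was at 1.12 ± 0.38 (adjusted p = 0.150), beside the 1.01 of both alpha genes. Hba-ps4, the other alpha pseudogene row looked at, was at 0.43 ± 0.38 in that one of the authors' deposited tables. In kidney the authors' deposited table puts Hba-ps3 at -0.30 ± 0.50 and Hba-ps4 at 0.67 ± 0.75, beside -0.16 for Hba-a1. Whether tags of either row come from the alpha genes was not tested.

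Heme synthesis and mitochondrial iron genes, 13 in number, had medians near 0 except in brain-named and spleen. The median log2 fold change was -0.35 in brain-named, 0.04 in heart, 0.12 in kidney, -0.11 in liver-named and 0.31 in spleen, and 0 passed in any table, with 0 at an unadjusted p under 0.05. In brain-named 10 of 13 were negative, while the adult globins were positive, as were 53.3% of all tested genes. That table carried the albumin gene at a high level, and the part of hepatocytes in these values was not tested. Alad, the second enzyme of the pathway, was at -0.11 ± 0.33 in brain-named and 0.06 ± 0.73 in spleen in the authors' deposited tables. Fech, which inserts iron into the ring, was at -0.41 ± 0.32 and 0.10 ± 0.72 in the same 2 of the authors' deposited tables. Unlike the globins, these genes had their highest level in the brain-named table in 6 of 13 cases and in spleen in 4, and with the median of ratios in 10 and 3.

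Red cell membrane and surface genes, 17 in number with Icam4 listed at 0, were highest in spleen in 10 of 16 cases. Liver-named was highest in 4 cases, in 2 without the 10 highest genes and in 1 with the median of ratios. Over all tested genes, 49.5% of changes were positive in spleen and 47.1% in liver-named. In spleen 14 of 16 tested list genes were positive, with a median of 0.66. In liver-named 12 of 16 tested list genes were negative, with a median of -0.62. None passed in either, by the authors' DESeq2 test, and 0 and 2 had an unadjusted p under 0.05. Sptb, a beta spectrin gene, was at 0.89 ± 0.95 in spleen and -0.95 ± 0.48 in liver-named in the authors' deposited tables. Klf1, in the same direction, was at 1.16 in spleen and -1.28 in liver-named. The part of cells other than red cells in the liver-named values was not tested.

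Erythroid transcription factors and the erythropoietin receptor were highest in spleen in 11 of 13 cases. Gata1, the master regulator of red cell genes, was at 36.7 CPM in spleen and under 1 in the other 4. Its change was 1.27 ± 1.04 in spleen and -1.30 ± 0.90 in liver-named in the authors' deposited tables. The liver-named value was the lowest of the tested list genes there, of which 5 were positive and 7 negative, with a median of -0.09. In spleen 10 of 13 tested genes of this list were positive, with a median of 0.28. In brain-named 8 of 9 tested genes of this list were negative, with a median of -0.31, while 53.3% of all tested genes were positive. Terminal maturation genes and red cell enzymes had medians between 0.11 and 0.15 outside spleen and 0.43 in spleen, with 13 of 17 positive there. Their lowest adjusted p was 0.0711, for Blvrb, a biliverdin reductase abundant in red cells, at 1.62 ± 0.52 in the authors' deposited kidney table.

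Hemoglobin and heme clearance genes had a median of 0.46 in brain-named and 0.42 in liver-named, against -0.42 in kidney. None of them passed (0 in every table) by the authors' DESeq2 test, with 1 or 2 at an unadjusted p under 0.05. Hp, haptoglobin, which binds free hemoglobin, was at -2.07 ± 0.75 in heart in the authors' deposited table (adjusted p = 0.181). Hepatocyte markers in heart were negative in all 7 tested, with a median of -0.69, and their part in the Hp value was not tested. Hmox1, heme oxygenase, had its highest level in spleen, at 681 CPM, and a change of 0.04 ± 0.42 there in the authors' deposited table. Eif2ak1, the heme-regulated kinase that slows globin translation when heme is short, was at 0.96 ± 0.48 in kidney (adjusted p = 0.406) and 0.77 ± 0.53 in spleen in the authors' deposited tables.

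**Figure D4:**
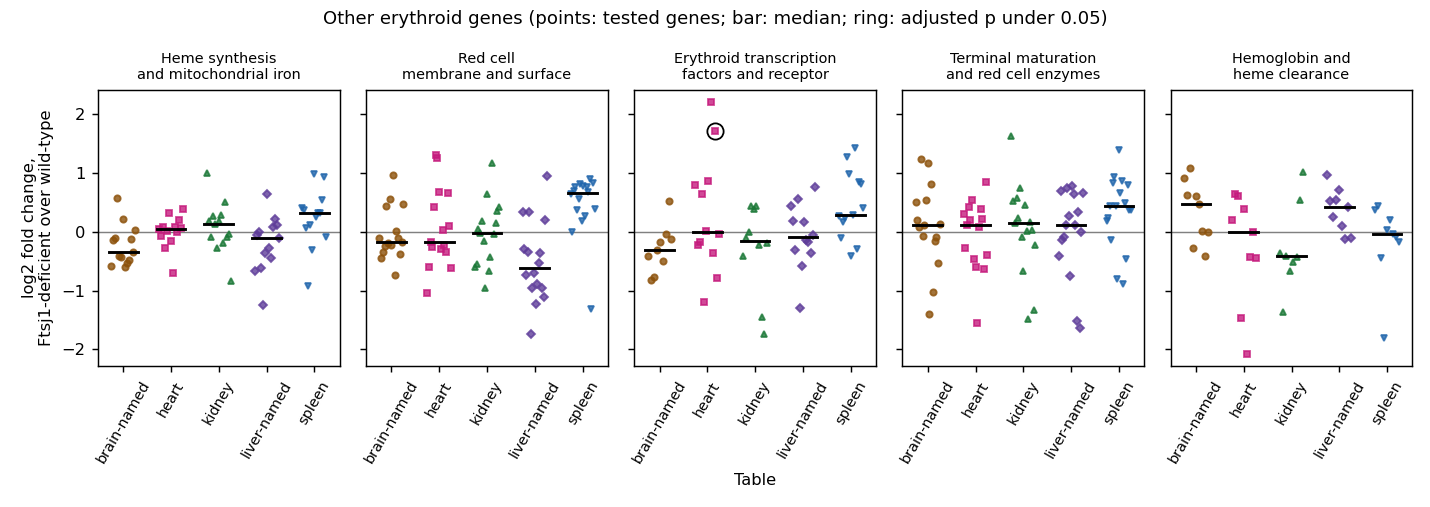
Log2 fold change of deficient over wild-type for the tested genes of 5 lists, by table, with points for genes, bars for list medians and a ring for the single gene that passed, Nfe2 in heart at 1.70. The spleen points of the membrane list lie mostly above 0, with a median of 0.66, and its liver-named points mostly below, with a median of -0.62.

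The plot of list genes shows the spread behind these medians. Genes tested for likeness to the set were those with a fold change in all 5 tables and a mean of at least 20 in each, 14738 genes. Likeness was the Euclidean distance between a gene's 5 log2 fold changes and the 7-gene medians of 0.69, 0.46, -0.10, -0.21 and 0.59. The 5 nearest other genes were C130046K22Rik at a distance of 0.18, Rab5c at 0.25, 6430710C18Rik at 0.27, Fam50a at 0.27 and Zswim7 at 0.28. Of the 7 genes, Epb42 had a mean under 20 in some tables and was not ranked, although its values enter the medians. Among the ranked genes of the set, Hbb-bs was nearest at 0.29 and Klf1 farthest at 1.55. Several other genes thus lay closer to the medians than any ranked gene of the set.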

How the data were processed

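The genes and lists were chosen with earlier results of these data known. Per the submitters' processing notes, the authors used GRCm39, featureCounts, Subread 2.0.3 and DESeq2. The aligner, annotation, treatment of tags that match several places and DESeq2 model are not given in the sources used here. The deposited means are a signal, in normalized counts over all libraries of an organ. Deposited changes and standard errors are log2 values. The deposited Wald statistic is a score, the change over its error. The deposited raw and adjusted p-values come from the authors' fit. A single row (1 per table) had no gene name and was dropped.

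Calls used the authors' adjusted p at a false discovery rate of 5%, with no new per-gene fit. The 95% intervals are normal intervals from the deposited standard error. CPM are means divided by the table's sum, times 1000000. Differences between tables used a z test, adjusted by Benjamini and Hochberg over all genes tested in both tables. This z test was checked on simulated data drawn as independent between tables, so the check does not cover tables that share mice. Alternatives were rates of 1% and 10%, p-values readjusted over all genes that had one or over those with a mean of 20 or more, a minimum log2 change of 1, and the Wald statistic divided by its robust spread. Levels were also taken without the 10 highest genes and scaled by the median of ratios.

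Named genes were the 9, Ftsj1, per list up to 4 that passed in a table and 3 others, and the 5 nearest genes. Hba-ps3, Hba-ps4, Apex2, B2m, Actc1 and the marker genes were named after their values were seen. Python 3.11.15 was used with matplotlib 3.10.9, scipy 1.17.1, pandas 2.3.3 and numpy 2.4.6. Some mice were brothers, and p-values measure the spread between these mice.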

Additional observations from a re-analysis of the deposited data

How the results depend on the processing

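The count of erythroid genes past the threshold was 0 in each of the 5 tables under all 6 alternatives tried. Of the differences between tables, 0 passed under both alternatives tried for them. The 1% rate and the minimum log2 change of 1 could only keep a count of 0, so they add no evidence. Rescaling by the robust spread could add calls only in spleen, where the spread was 0.95. At the 10% rate, the genes that passed numbered 155 in brain-named, 381 in heart, 606 in kidney, 125 in liver-named and 78 in spleen. The level of the summed adult globins in spleen relative to the other tables moved with scaling, and the cause was not tested. Spleen over brain-named was 54.1 as a share of the sum, 47.9 without the 10 highest genes of each table and 35.4 with the median of ratios. Spleen over heart was 6.76, 7.47 and 5.33 in that order, spleen over kidney 27.7, 36.5 and 34.0, and spleen over liver-named 57.0, 76.0 and 85.3. Spleen, heart and kidney kept the first 3 places for the globin sum, while Hbb-bs and Hbb-bt were higher in brain-named than in kidney by 1.26-fold and 1.12-fold with the median of ratios. Brain-named over liver-named for the globin sum went from 1.05 to 1.59 and 2.41. No paired analysis was possible because the tables hold no values per library, and for the same reason no library could be left out.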
